A study of Drosophila melanogaster with 6 samples.

Results

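Tubulin genes of Drosophila melanogaster were compared between body parts of adult males. The set holds 10 alpha, beta and gamma tubulin genes, chosen by name. Of these, 8 matched an identifier among the 16942 genes of the count files: alphaTub84B, alphaTub84D, alphaTub85E, alphaTub67C, betaTub85D, betaTub97EF, gammaTub23C and gammaTub37C. The current identifiers of betaTub56D, the general beta tubulin, and betaTub60D, known from neurons and developing muscle, matched no row. Both genes may be present under older identifiers, and neither was analysed here. The beta results therefore concern betaTub85D and betaTub97EF, no share of all beta tubulin is given, and the neural and muscle beta isotype is not compared.

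RNA was sequenced from 3 pools, each of 40 body parts from wild type males of the Dahomey strain. The pools were the abdomen after 2 h with rival males, the head and thorax together after 2 h with rivals, and the head and thorax after 26 h with rivals. Larvae grew at 100 per vial, adults were kept 10 per vial, and from 1 day of age each male was alone for 5 days. Each pool was divided into 2 libraries sequenced on different lanes of a flow cell. All 3 groups had met rivals and each was 1 pool, so every test below compares pools with the spread of split libraries as its error, and the effect of rivals was not separable from the passage of time.

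Microtubules are polymers of alpha and beta tubulin dimers, and gamma tubulin sits in ring complexes that start their growth. Flies carry several genes for each subunit. alphaTub84B and alphaTub84D are used in most cells and encode nearly the same protein. betaTub85D is used in male germ cells, where it builds the meiotic spindle and the axoneme of the sperm tail. alphaTub67C and gammaTub37C are known from the ovary and early embryo, and gammaTub23C from dividing somatic cells and the male germline.

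The libraries held 21070598 to 34217543 gene counts. The common dispersion gave a technical coefficient of variation of 1.63% beyond counting error, which is larger for genes with few counts. Levels are given in CPM, counts scaled to a common library size after TMM normalisation. Pool levels are means over the pair of split libraries, with their SD. A gene counted as higher or lower when edgeR's quasi-likelihood test, adjusted by Benjamini-Hochberg over 14694 genes, gave a p under 0.05 and the difference reached 2-fold. The SE of a log2 ratio was derived from that ratio and the test's F statistic. It is too small where the difference is large and a pool has few counts. The testis, neuron and flight muscle markers followed the labels of the dissection. The summed level of 10 testis germline genes was 1278 to 1298 CPM in the abdomen libraries, 3.47 to 3.60 CPM in head-thorax at 2 h and 7.54 to 8.75 CPM at 26 h. The 7 tested neuron genes summed to 109 to 110 CPM in the abdomen and 1472 to 1493 CPM in head-thorax at 2 h. Flight muscle genes, 6 in number, summed to 485 to 499 CPM and 5327 to 5395 CPM in the same order. In bulk tissue, fewer cells of a type and less RNA per cell cannot be told apart.

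In build BDGP6.54, most of the genes lie on chromosome arm 3R. alphaTub84B spans positions 7086599 to 7088839, alphaTub84D 7530753 to 7532732, betaTub85D 9408383 to 9410282, alphaTub85E 9731221 to 9733250 and betaTub97EF 27967008 to 27988384. alphaTub67C lies on 3L from 9681268 to 9683370. gammaTub23C lies on 2L from 2972891 to 2974858, and gammaTub37C on the same arm from 19183863 to 19185726. No other annotated gene overlapped any of these 8.

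Differences of at least 2-fold between abdomen and head-thorax at 2 h were called in betaTub85D, alphaTub85E and alphaTub67C, isotypes of restricted use. betaTub85D was 557-fold higher in the abdomen and alphaTub85E 10.8-fold higher, while alphaTub67C was lower and nearly unread there. The general alpha genes, betaTub97EF and gammaTub23C differed by less than 2-fold. Of the 7 tubulin genes tested, 2 were higher and 1 was lower, where 35.6% of all genes tested were higher and 21.7% lower. These counts did not exceed the shares over all genes. The median log2 ratio of abdomen over head-thorax was 0.30 for the 7 tubulin genes, beside 0.06 over all genes. Scaling by DESeq2's size factors or by raw totals moved that all-gene median by 0.14 or 0.21.

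**Figure D1:**
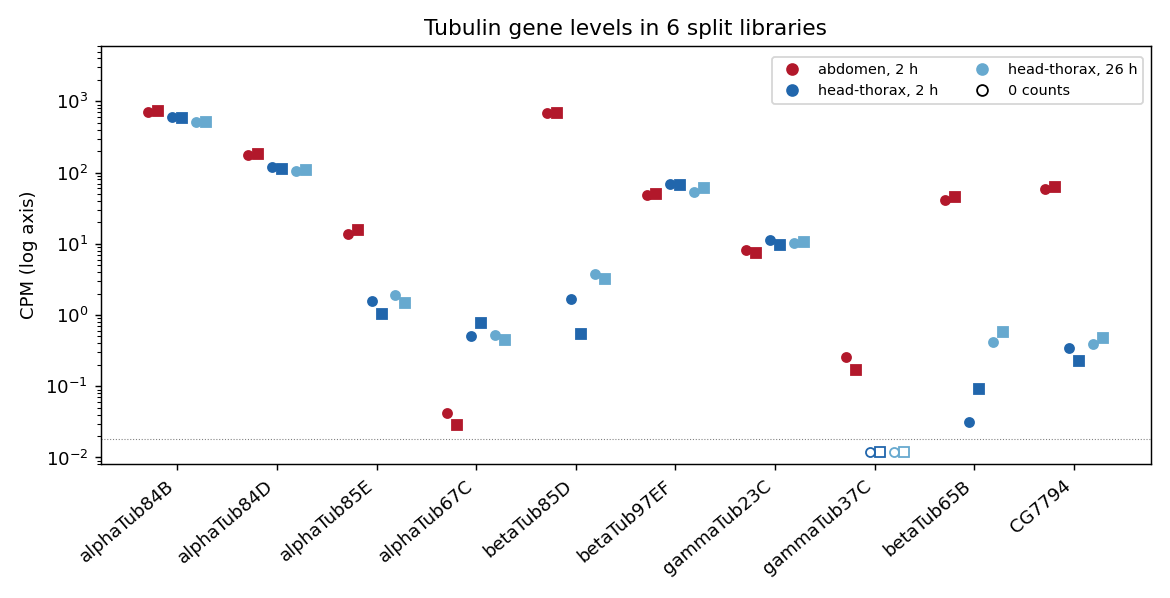
Level of each measured tubulin gene in the 6 libraries, in CPM on a log axis; circles and squares are split libraries 1 and 2, and open symbols under the dotted line mark 0 counts. betaTub85D stood at 685 CPM in the abdomen and near 1 CPM in head-thorax at 2 h, while alphaTub84B stayed between 519 and 741 CPM in every library.

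alphaTub84B, the major alpha tubulin, had 709 and 741 CPM in the abdomen libraries, 596 and 584 CPM in head-thorax at 2 h, and 519 and 521 CPM at 26 h. The 3 pools did not overlap. The log2 ratio of abdomen over head-thorax was 0.30 ± 0.026 (SE, edgeR adjusted p = 3.78e-19), short of 2-fold. alphaTub84D, its close relative, had 174 and 183 CPM in the abdomen, 121 and 114 CPM in head-thorax at 2 h, and 105 and 108 CPM at 26 h. It too was highest in the abdomen, with a log2 ratio of 0.60 ± 0.031 (edgeR adjusted p = 9.58e-33), again short of 2-fold. Reads may be shared between these near-identical copies, and how such reads were counted is not given in the sources used here, so the split between them is uncertain.

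alphaTub85E is a divergent alpha isotype known from embryonic chordotonal organs and the testis. It had 13.6 and 15.4 CPM in the abdomen libraries, 1.57 and 1.05 CPM in head-thorax at 2 h, and 1.94 and 1.47 CPM at 26 h. Both abdomen libraries lay far above the other 4, whose values overlapped between times. The abdomen was higher by a log2 ratio of 3.43 ± 0.14 (edgeR adjusted p = 2.27e-40).

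alphaTub67C, the maternal alpha tubulin of the egg, ran the other way at very low depth. It had 1 count in each abdomen library, 16 and 17 counts in head-thorax at 2 h, and 15 and 14 counts at 26 h. Head-thorax at 2 h exceeded the abdomen by 18.1-fold, with a 95% counting interval of 4.62 to 155 (edgeR adjusted p = 1.53e-07). Its highest mean in any pool was 0.395 CPM per kb of exon, against 337 CPM per kb for alphaTub84B in that pool. The 5 measured genes of a female germline list moved in different directions. Of 3 tested, the eggshell gene dec was higher in the abdomen, with 104 counts there and 2 in head-thorax at 2 h. The gene grk, the oocyte's EGF-receptor ligand, was lower, and bcd, the anterior egg determinant, did not pass (edgeR adjusted p = 0.0736). Of all genes tested, 35.6% were higher in the abdomen and 21.7% lower. grk had 5.49 and 6.63 CPM in the abdomen against 23.0 and 23.8 CPM, and it overlaps Akap200, which had 8647 and 4227 counts in those pools. dec overlaps asRNA:CR43615, which had 75 counts in the abdomen and 0 in head-thorax at 2 h. osk, which marks the oocyte's posterior pole, had 0.170 CPM in the abdomen and 0.132 CPM in head-thorax at 2 h, too few for the test. The summed level of the list was 7.90 to 9.74 CPM in the abdomen libraries and 23.9 to 24.4 CPM in head-thorax at 2 h, and its part in the alphaTub67C result was not tested.

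betaTub85D, the beta tubulin of male germ cells, had 16078 and 24358 counts in the abdomen libraries, 54 and 12 counts in head-thorax at 2 h, and 107 and 99 counts at 26 h. Its abdomen level of 685 ± 7.63 CPM (SD, n = 2 split libraries) was close to that of alphaTub84B, at 725 ± 22.6 CPM. In head-thorax at 2 h it stood at 1.12 ± 0.808 CPM (SD, n = 2). The log2 ratio was 9.12 ± 0.064 (edgeR adjusted p = 3.77e-103), an SE that is too small for the 66 head-thorax counts. The size depended on which head-thorax library was kept: the fold was 1299 without library 1 and 401 without library 2, and the call held both times. The testis markers moved with it. All 10 were higher in the abdomen, with a median log2 ratio of 8.01, where 35.6% of all genes tested were higher. The part of the testis markers in the result was not tested.

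betaTub97EF, a beta isotype known from the fly gut and other tissues, had 48.0 and 50.3 CPM in the abdomen, 68.9 and 66.7 CPM in head-thorax at 2 h, and 54.1 and 60.0 CPM at 26 h. The abdomen libraries were the lowest and those of head-thorax at 2 h the highest. The log2 ratio of abdomen over head-thorax was −0.46 ± 0.042 (edgeR adjusted p = 5.2e-18), short of 2-fold. Midgut markers, 5 in number, summed to 5927 to 6228 CPM in the abdomen and 4792 to 4910 CPM in head-thorax at 2 h. Single genes differed in direction, from Mal-A1 at 29.5% of its abdomen level in head-thorax at 2 h to Amy-p at 183%. In the abdomen 2 of the 5 passed as higher and 3 did not pass, where 35.6% of all genes tested were higher and 21.7% lower.

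gammaTub23C, the general gamma tubulin, had 8.15 and 7.45 CPM in the abdomen, 11.1 and 9.72 CPM in head-thorax at 2 h, and 10.3 and 10.6 CPM at 26 h. The abdomen libraries were the lowest, with a log2 ratio of −0.45 ± 0.096 (edgeR adjusted p = 1.54e-05), short of 2-fold. gammaTub37C, its maternal relative, had 6 counts in each abdomen library and 0 counts in all 4 head-thorax libraries, too few for the test. Against a floor of 3 counts over the head-thorax pool at 2 h, its abdomen level of 0.212 CPM gave a lower bound of 3.65-fold. That bound leaves out the counting error of the abdomen counts.

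**Figure D2:**
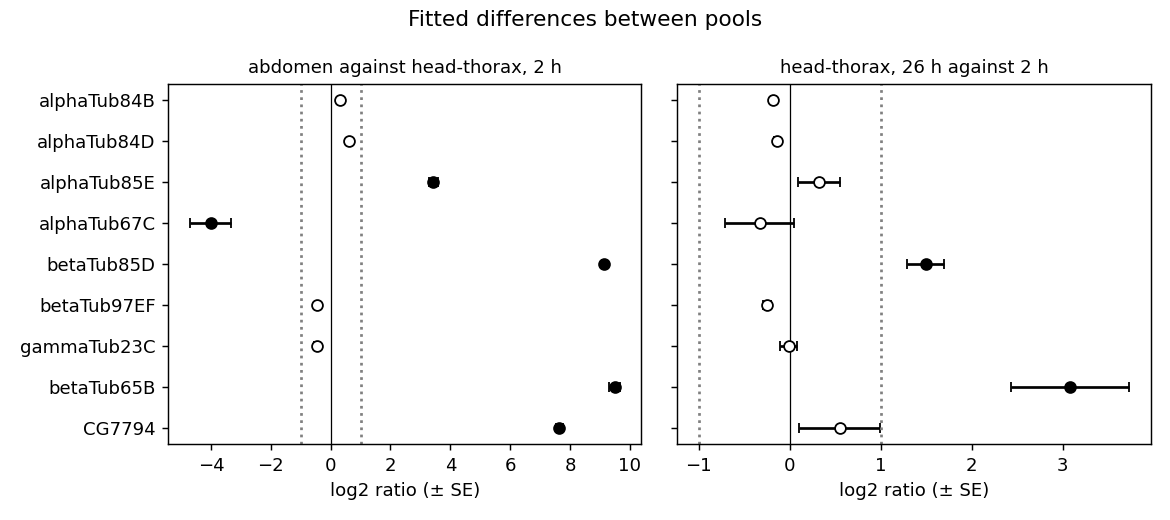
Log2 ratio with SE for each tubulin gene that passed the filter on low counts and for betaTub65B and CG7794; filled points passed the test with a difference of at least 2-fold, and dotted lines mark 2-fold. The SE, derived from the F statistic, is too small where the difference is large and a pool has few counts. In the abdomen comparison betaTub85D and both divergent genes lay beyond 7 log2 units, while over time only betaTub85D and betaTub65B are filled.

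Levels of different genes were set side by side per kb of exon. In the abdomen the order was alphaTub84B at 414 ± 12.9, betaTub85D at 372 ± 4.15, alphaTub84D at 90.1 ± 3.04, betaTub97EF at 26.3 ± 0.888, alphaTub85E at 9.29 ± 0.851 and gammaTub23C at 4.22 ± 0.269 CPM per kb, and all neighbours differed by more than their spread. In head-thorax at 2 h alphaTub84B stood at 337 ± 4.80, alphaTub84D at 59.3 ± 2.40, betaTub97EF at 36.3 ± 0.828 and gammaTub23C at 5.64 ± 0.545 CPM per kb. The low end there, alphaTub85E at 0.838 ± 0.234, betaTub85D at 0.608 ± 0.439 and alphaTub67C at 0.395 ± 0.120 CPM per kb, did not separate beyond the spread of its neighbours. At 26 h betaTub85D, at 1.88 ± 0.235 CPM per kb, lay above alphaTub85E, at 1.09 ± 0.213 CPM per kb.

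The beta pair thus traded places between body parts. betaTub85D stood at 14.4 and 13.9 times betaTub97EF per kb in the abdomen libraries, and at 0.0249 and 0.00833 times in head-thorax at 2 h. Relative to alphaTub84B it stood at 0.911 and 0.886 in the abdomen. gammaTub23C stood far below alphaTub84B in every library, at a ratio of 0.0109 and 0.0095 per kb in the abdomen and 0.0177 and 0.0158 in head-thorax at 2 h.

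Among the 4 alpha genes, counted per exon length, alphaTub84B made up 80.6% ± 0.125 in the abdomen (SD, n = 2 split libraries). At 2 h it made up 84.8% ± 0.352 of head-thorax alpha tubulin counts, and at 26 h 84.3% ± 0.243. alphaTub84D made up 17.5% ± 0.0199, 14.9% ± 0.329 and 15.3% ± 0.316 in the same order. The abdomen share of alphaTub84D lay above every head-thorax library, and the 2 head-thorax times overlapped. alphaTub85E made up 1.81% ± 0.107 of the abdomen's alpha tubulin counts and 0.210% ± 0.0550 of those in head-thorax at 2 h. These shares rest on the uncertain split between alphaTub84B and alphaTub84D and on the exon lengths of the current annotation.

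**Figure D3:**
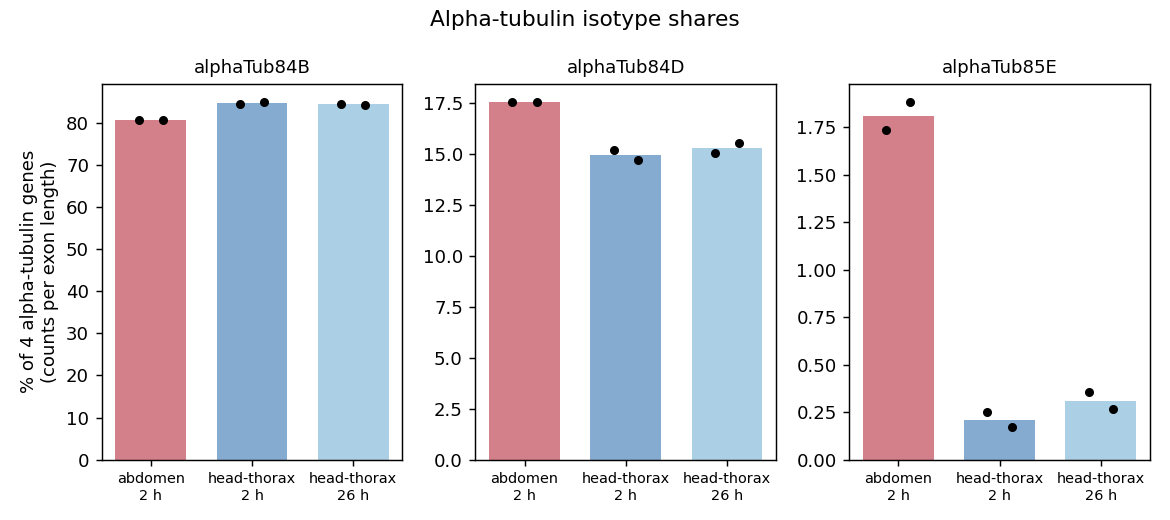
Share of each of 3 alpha genes among the 4 alpha tubulin genes, in percent of counts per exon length, with bars at the mean and dots for the split libraries; each panel has its own axis from 0. alphaTub84D and alphaTub85E took a larger share in the abdomen, 17.5% and 1.81%, and alphaTub84B a smaller one, 80.6%.

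Between 2 h and 26 h in head-thorax, betaTub85D was the single tubulin gene of the 7 tested that passed as higher, and none passed as lower, where 6.21% of all genes tested were higher and 1.5% lower. The median log2 ratio of 26 h over 2 h was −0.15 for these 7 genes and 0.00 over all genes. betaTub85D had 1.69 and 0.547 CPM at 2 h and 3.77 and 3.16 CPM at 26 h, and the times did not overlap. The log2 ratio was 1.49 ± 0.203, a 2.81-fold difference (edgeR adjusted p = 1.03e-09). Without library 1 at 2 h the difference was 6.27-fold and without library 2 it was 2.04-fold. When the model itself tested for more than 2-fold, the call was lost (edgeR adjusted p = 0.0855).

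The other 6 were not called over time. alphaTub84B had a log2 ratio of −0.18 ± 0.026 (edgeR adjusted p = 5.62e-09), alphaTub84D −0.15 ± 0.033 (adjusted p = 0.000174) and betaTub97EF −0.25 ± 0.040 (adjusted p = 1.62e-07), all short of 2-fold. For alphaTub85E the log2 ratio was 0.32 ± 0.233 (adjusted p = 0.286) and for alphaTub67C −0.33 ± 0.379 (adjusted p = 0.521). gammaTub23C, at 10.4 ± 1.01 CPM after 2 h, had 10.4 ± 0.196 CPM after 26 h, with a log2 ratio of −0.01 ± 0.090 (adjusted p = 0.944), whose sign turned under some alternatives.

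Expressed as a percentage of the abdomen level, head-thorax betaTub85D stood at 0.163% after 2 h and 0.507% after 26 h. Genes of the testis germline list ranged from 0.102% to 4.67% at 2 h, with a median of 0.455%, and from 0.359% to 5.87% at 26 h, with a median of 0.820%. The sperm gene dj, for one, went from 0.109% to 0.418%, and 6 of the 10 testis genes passed as higher at 26 h, where 6.21% of all genes tested did. When the model tested for more than 2-fold, ocn, Mst87F, ProtA, ProtB and sa lost the call, with edgeR adjusted p from 0.0626 to 0.572. Without head-thorax 2 h library 1, ProtA, ProtB and sa lost it too, with log2 ratios of 1.34, 1.69 and 1.19, and without 26 h library 1 ProtB, or without 26 h library 2 ProtA and sa, lost it. Accessory gland genes, the other abdominal reproductive list, had medians of 0.128% and 0.204%. Over time 0 of 6 passed in either direction, beside 6.21% of all genes higher and 1.5% lower. The part of testis RNA in the head-thorax level of betaTub85D was not tested. alphaTub85E stood at a larger percentage than betaTub85D, 9.02% at 2 h and 11.8% at 26 h, and alphaTub84B at 81.3% and 71.7%.

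**Figure D4:**
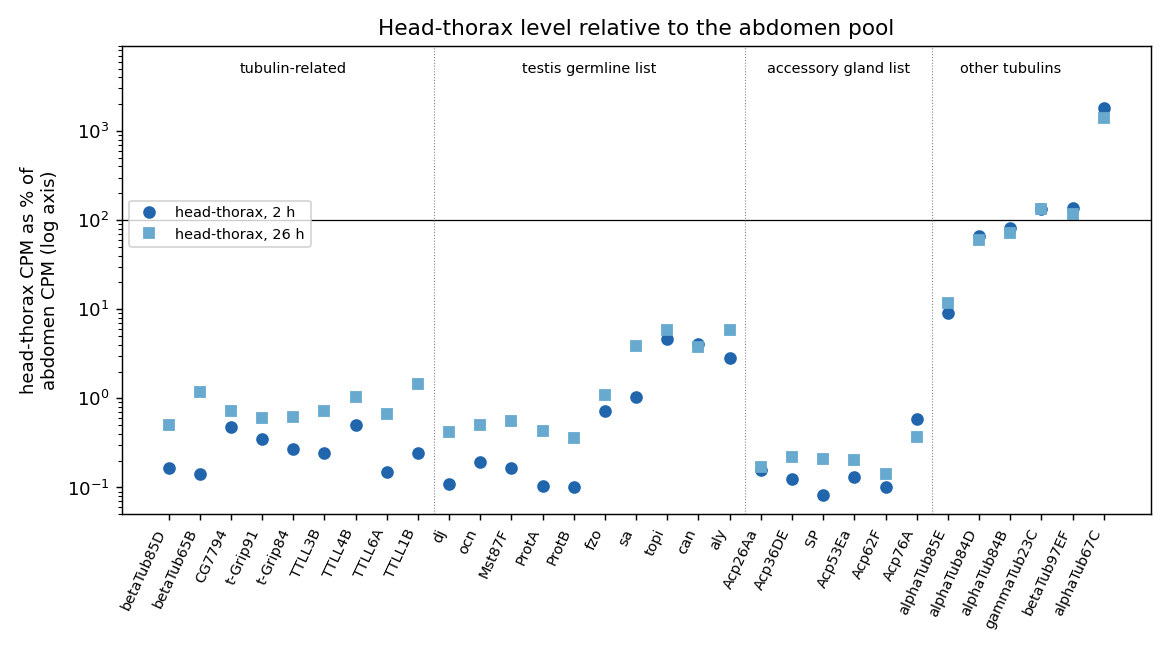
Head-thorax level at 2 h (circles) and 26 h (squares) as a percentage of the abdomen level, on a log axis. The first group holds betaTub85D, betaTub65B, CG7794, t-Grip91, t-Grip84 and the TTLL enzymes called higher over time, TTLL3B, TTLL4B, TTLL6A and TTLL1B. Other TTLL enzymes, among them TTLL6B, and t-Grip128 are not drawn. The testis germline list, the accessory gland list and the other tested tubulins follow. betaTub85D, at 0.163% and 0.507%, lay within the range of the testis list, and alphaTub67C, which had 2 abdomen counts in all, lies above 100%.

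The 3 genes closest to betaTub85D in level across the 3 pools, by the Euclidean distance of log2(CPM + 0.5), were CG2127 at 0.149, CG3213 at 0.284 and CG5089 at 0.293. CG3213, for example, had 640 CPM in the abdomen, 1.38 CPM in head-thorax at 2 h and 3.92 CPM at 26 h. The closest to alphaTub84B were CG42637 at 0.322, the ferritin heavy chain gene Fer1HCH at 0.347 and the acyl-CoA synthetase gene Acsl at 0.349. Fer1HCH had 606, 504 and 505 CPM in the same order. CG2127, CG5089 and all 3 of the latter genes overlap another annotated gene, so their counts may include its reads.

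A pair of further tubulin genes, betaTub65B and CG7794, divergent in sequence and not among the 10, were both higher in the abdomen. Of all genes tested, 35.6% were higher there. betaTub65B had 971 and 1581 counts in the abdomen libraries, then 1 and 2 counts in head-thorax after 2 h, and 12 and 18 counts after 26 h. The abdomen exceeded head-thorax by 777-fold (95% counting interval 266 to 3770, edgeR adjusted p = 1.86e-67). At 26 h betaTub65B stood at 9.03 times its 2 h level (95% counting interval 2.81 to 46.3, edgeR adjusted p = 4.36e-05). Without head-thorax 2 h library 1 its log2 ratios were 8.88 for the abdomen and 2.41 over time, and without library 2 they were 10.24 and 3.84, with both calls held. It overlaps the gene sfl, which had 3809 counts in the abdomen and 1754 in head-thorax at 2 h. CG7794 had 1371 and 2201 abdomen counts, then 11 and 5 counts in head-thorax after 2 h and 11 and 15 counts after 26 h, a log2 ratio of 7.65 ± 0.124 for the abdomen (edgeR adjusted p = 6e-73) and 0.55 ± 0.446 over time (edgeR adjusted p = 0.352).

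Gamma tubulin works with the Grip proteins of the ring complex. Of 6 ring genes tested, 1 was higher in the abdomen and 0 were lower, beside 35.6% and 21.7% of all genes, with a median log2 ratio of 0.03. The gene that passed, Grip71, had 9.08 and 9.91 CPM in the abdomen and 2.54 and 3.28 CPM in head-thorax at 2 h (log2 ratio 1.75 ± 0.131, edgeR adjusted p = 1.81e-22), and it overlaps Irk3, a potassium channel gene with 2190 and 592 counts in those pools. Grip91, the most abundant, had 171 CPM in both abdomen libraries and 109 and 107 CPM in head-thorax. It had 10080 counts in the abdomen and 5823 in head-thorax at 2 h. Grip91 overlaps CG11151, with 8443 and 4647 counts in those pools, and CG11134, with 1252 and 622. The Grip91 counts may include their reads. The testis paralogues of these ring proteins were all higher in the abdomen, 3 of 3, with a median log2 ratio of 8.38. t-Grip91 had 106 and 103 CPM in the abdomen and 0.407 and 0.319 CPM in head-thorax at 2 h, a log2 ratio of 8.12 ± 0.101, and t-Grip84 had 58.9 and 55.7 CPM against 0.219 and 0.0912 CPM. The log2 ratio of t-Grip84 was 8.38 ± 0.137, or 9.28 without head-thorax 2 h library 1. None of the ring genes or their testis paralogues passed over time, with median log2 ratios of 0.09 and 0.73. Of all genes tested, 6.21% were higher over time and 1.5% lower. Without head-thorax 26 h library 2, t-Grip91 passed as higher over time, with a log2 ratio of 1.12 (edgeR adjusted p = 0.0385).

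Of 17 tubulin folding genes tested (cofactor, chaperonin and prefoldin subunits), 1 was higher in the abdomen and 1 lower, beside 35.6% and 21.7% of all genes. Their median log2 ratio was 0.06, the same as over all genes. Over time 0 passed, with a median of −0.09, beside 6.21% of all genes higher and 1.5% lower. The prefoldin gene Pfdn5 had a log2 ratio of 1.05 ± 0.063 and the cofactor gene Tbcc −1.05 ± 0.136, both just past 2-fold, and both were lost when the model tested for more than 2-fold. Tbcc, at −0.97, also fell short without head-thorax 2 h library 1, and under DESeq2 (−0.91) and both other scalings (−0.91 and −0.84). The chaperonin subunit CCT2 had 45.9 and 49.1 CPM in the abdomen and 48.8 and 46.3 CPM in head-thorax at 2 h, values that overlapped.

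Enzymes that modify tubulin divided more widely. Of 15 tested, 9 were higher in the abdomen and 2 lower, with a median log2 ratio of 1.73 beside 0.06 over all genes. Of all genes tested, 35.6% were higher and 21.7% lower. The glycylase TTLL3B had 151 and 154 CPM in the abdomen, 0.376 and 0.365 CPM in head-thorax at 2 h and 1.20 and 1.02 CPM at 26 h. TTLL4B, a ligase of the same tubulin tyrosine ligase-like family, had 214 and 224 CPM in the abdomen, 0.970 and 1.23 CPM at 2 h and 2.15 and 2.40 CPM at 26 h. TTLL6B had 116 and 118 CPM in the abdomen and 2.28 and 2.05 CPM in head-thorax at 2 h. These 3 overlap no other gene, for which they were picked after their values were seen, and their log2 ratios were 8.67 ± 0.089, 7.66 ± 0.071 and 5.74 ± 0.070. TTLL1A, TTLL1B, TTLL4A, TTLL5 and TTLL6A were also higher, with log2 ratios from 1.73 to 9.33, and each overlaps another gene. Without head-thorax 2 h library 1 the log2 ratio of TTLL1A went from 8.90 to 11.31 and that of TTLL1B from 8.49 to 9.77, and without library 2 that of TTLL1A was 8.26. The alpha tubulin acetyltransferase gene Atat, with a log2 ratio of 1.16 ± 0.026, had 28886 counts in the abdomen and 11750 in head-thorax at 2 h. It overlaps CG3982, with 21141 and 60 counts in those pools, and aay, with 3430 and 9481. The Atat counts may include their reads, and whether Atat is higher without them was not tested.

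The lower enzymes were TTLL15, at 3.08 and 2.35 CPM in the abdomen and 8.51 and 8.26 CPM in head-thorax at 2 h, and TTLL3A, at 0.169 and 0.541 CPM on average, whose call was lost under DESeq2 (adjusted p = 0.0514), without head-thorax 2 h library 1, and when the model tested for more than 2-fold (edgeR adjusted p = 0.051). The deacetylase gene HDAC6 and the deglutamylase gene Nna1 did not reach 2-fold, with log2 ratios of 0.34 and 0.81. HDAC6 overlaps asRNA:CR44998, with 1264 counts in the abdomen and 826 in head-thorax at 2 h. Nna1 overlaps Nadsyn, with 13044 and 7562 counts in those pools. The HDAC6 and Nna1 counts may include these reads. Over time 4 enzymes passed as higher and 0 as lower, with a median log2 ratio of 0.11, where 6.21% and 1.5% of all genes tested did so: TTLL1B at 2.39, TTLL3B at 1.56, TTLL4B at 1.08 and TTLL6A at 2.11. All 4 calls were lost when the model tested for more than 2-fold. Without head-thorax 2 h library 1, TTLL1B was at 3.60 and TTLL4B, at 0.89, was no longer called, and without 26 h library 2 TTLL4B, at 1.00, was not called either, nor was it with raw totals, at 0.98.

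**Figure D5:**
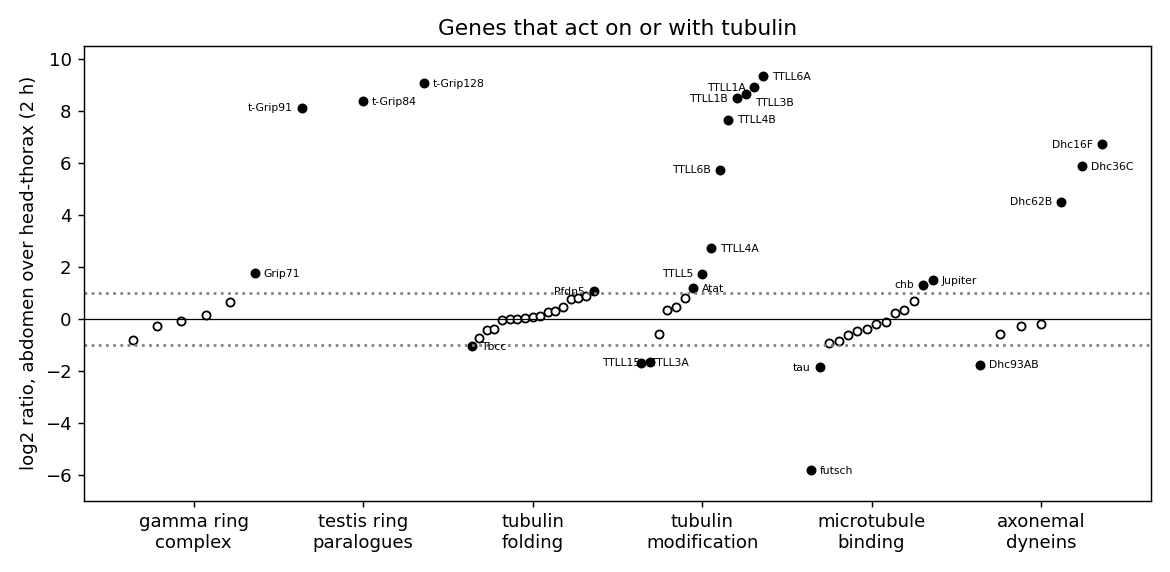
Log2 ratio of abdomen over head-thorax at 2 h for genes that act on or with tubulin, 1 point per gene in 6 lists; named, filled points passed the test with at least 2-fold, and dotted lines mark 2-fold. Testis ring paralogues and several TTLL enzymes lay above 5, the folding genes near 0, and futsch near −6.

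Of 14 genes tested whose proteins bind microtubules, 2 were higher in the abdomen and 2 lower, beside 35.6% and 21.7% of all genes. Their median log2 ratio was −0.30. Over time 0 passed, with a median of 0.04, beside 6.21% of all genes higher and 1.5% lower. futsch, the fly MAP1B of axons and synapses, had 4.56 and 4.45 CPM in the abdomen, 261 and 248 CPM in head-thorax at 2 h, and 483 and 454 CPM at 26 h. Its log2 ratio was −5.82 ± 0.056 for the abdomen and 0.88 ± 0.027 over time, the latter short of 2-fold (edgeR adjusted p = 4.7e-48). tau, another neuronal microtubule protein, had 32.1 and 37.4 CPM in the abdomen and 124 and 131 CPM in head-thorax at 2 h. The higher genes were Jupiter, at 246 and 251 CPM against 88.6 and 90.7 CPM, and chb, the fly CLASP, at 322 and 325 CPM against 134 and 128 CPM. futsch overlaps Gr2a, tau overlaps RpS10a and mir-1001, and chb overlaps AsnS, so their counts may include reads of those genes. All 7 neuron markers tested were lower in the abdomen, with a median log2 ratio of −3.61, and their part in the levels of futsch and tau was not tested.

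Axonemal dynein heavy chains, the motors of cilia and sperm tails, gave 3 higher and 1 lower in the abdomen of 7 tested, with a median log2 ratio of −0.20. These counts lay near the shares over all genes, 35.6% higher and 21.7% lower. Dhc36C had 111 and 113 CPM in the abdomen and 2.22 and 1.46 CPM in head-thorax at 2 h, and Dhc16F had 45.0 and 46.2 CPM against 0.532 and 0.274 CPM. The log2 ratio of Dhc16F was 6.73, or 7.42 without head-thorax 2 h library 1. Dhc62B was higher too, with a log2 ratio of 4.51. Dhc36C and Dhc62B each overlap another annotated gene, so their counts may include its reads. Dhc93AB ran the other way, at 1.69 and 1.70 CPM against 5.79 and 5.84 CPM, a log2 ratio of −1.77 ± 0.158. Over time 1 of the 7 was lower and 0 higher, with a median log2 ratio of 0.09. Of all genes tested, 1.5% were lower over time and 6.21% higher.

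The split libraries set the technical error. The 2 libraries of a pool were compared gene by gene with a two-sided exact binomial test on their totals. Among the tubulin members, alphaTub84B differed in the abdomen by 1.04-fold (exact binomial test, adjusted p = 0.00112), where 1.83% of genes tested differed. betaTub85D differed in head-thorax at 2 h by 3.09-fold (exact binomial test, adjusted p = 0.0245), where 0.638% differed. In head-thorax at 26 h 0 members differed, where 0.459% of all genes did. The betaTub85D level in head-thorax at 2 h is therefore known only to within that 3.09-fold split, and both values lay below those of every other pool.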

How the data were processed

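The authors deposited raw counts of reads per gene for 6 libraries, single-end reads of 50 nt per the series' design text. Aligner, counter and genome build: not given in the sources used here, nor is the handling of reads that match several genes. Gene identifiers were matched to annotation BDGP6.54 (16735 of 16942 matched, 207 not), which also gave positions, overlaps and exon lengths. Counts of genes without a match stayed in the library totals. Low-count genes were removed with filterByExpr, and counts were scaled by TMM and tested in edgeR 4.0.16 (R 4.3.3) with glmQLFit and glmQLFTest on all 6 libraries in 1 fit, with 3 residual degrees of freedom. DESeq2 1.42.0 was an alternative. Others were scaling by DESeq2's size factors or raw totals, no filter, the 4 libraries of a comparison alone, a 2-fold limit tested in the model, a replicate block, other length corrections and leaving out each library.

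Groups were the 3 pools. The p-values measure technical spread between split libraries only. Split libraries were compared with an exact binomial test for genes with at least 10 counts in sum. Counting intervals are exact at 95% and cover counting error only. The 3-count floors cover the counting error of the lower pool alone. Scripts were tested on simulated data. The members and gene lists were chosen with earlier results of these data known. Named genes were the members, up to 4 of the most abundant of each list, any gene of a list where 5 or fewer passed, and the 3 nearest in level to betaTub85D or alphaTub84B; further TTLL genes, ProtA and sa were named after their values were seen. The current identifiers of betaTub56D and betaTub60D had no match, so the nearest genes to betaTub60D were not sought. Whether the counts hold both genes under older identifiers was not resolved.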

Additional observations from a re-analysis of the deposited data

How the results depend on the processing

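Across the alternative settings, 177 values of tubulin genes kept their direction and side of the threshold, 1 lost its call and 4 reversed, while of values of other genes 554 held, 27 lost a call and 1 gained it. The lost tubulin call was betaTub85D at 26 h against 2 h when 2-fold was tested in the model, which left 0 tubulin genes higher. The same limit left 317 of all genes higher and 88 lower over time, and DESeq2's Wald test called 137 lower. The sign of gammaTub23C over time, at a log2 ratio of −0.01, turned to 0.029 with DESeq2's size factors and 0.036 with DESeq2's Wald test. Leaving out 1 library at a time it ranged from −0.093 to 0.11, positive without head-thorax 2 h library 1 (0.11) and 26 h library 1 (0.0043), and the cause was not tested. The alphaTub84D share was 21.4%, 18.3% and 18.7% per gene span (abdomen, head-thorax 2 h, 26 h) and 19.4%, 16.6% and 16.9% with no length correction, and the abdomen share of alphaTub85E was 1.70% and 1.58%. Library numbers do not pair the pools: same-numbered libraries deviated with r = −0.00307 and 0.0816 over 14694 genes. The replicate block gave 5222 genes higher and 3195 lower in the abdomen, and 891 and 190 over time, and moved no tubulin call. Depth limits alphaTub67C, gammaTub37C and head-thorax betaTub85D.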

Other observations

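The Y-linked dynein genes kl-2, kl-3 and kl-5, known from spermatocytes, did not follow betaTub85D. kl-5 had 104 and 88.7 CPM in the abdomen, 132 and 158 CPM in head-thorax at 2 h, and 25.8 and 32.7 CPM at 26 h. It was the dynein that passed as lower over time, with a log2 ratio of −2.29 ± 0.054 (edgeR adjusted p = 1.32e-57). The split libraries of kl-5 differed in every pool, by 1.17-fold in the abdomen (exact binomial test, adjusted p = 1.76e-06). The later splits were 1.19-fold after 2 h (adjusted p = 4.77e-12) and 1.27-fold after 26 h (adjusted p = 0.000289). Each is smaller than its 4.88-fold fall over time, and the cause of these splits was not tested. kl-3 had 65.4 and 61.6 CPM, 75.3 and 77.1 CPM, and 78.3 and 73.8 CPM in the same order, and kl-2 had 101 and 88.1 CPM, 106 and 110 CPM, and 100.1 and 87.9 CPM. Neither reached 2-fold in either comparison. The split libraries of kl-2 differed by 1.15-fold in the abdomen (exact binomial test, adjusted p = 8.51e-05) and 1.14-fold after 26 h (adjusted p = 0.000368). Those of kl-3 did not pass in any pool. Both kl-2 and kl-3 overlap other annotated elements, so their counts may include reads from these.

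The spectraplakin gene shot, which links actin and microtubules, had 319 and 325 CPM in the abdomen, 581 and 584 CPM in head-thorax at 2 h, and 916 and 914 CPM at 26 h, with log2 ratios of −0.86 and 0.65 that fell short of 2-fold.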
